A study of Rattus norvegicus with 6 samples.

Results

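Predicted non-coding RNA models of the rat genome were followed in pancreatic islets, the endocrine cell clusters of the pancreas, of adult and of 10-day-old (P10) rats. They were the array probes, controls left out, whose names begin with XR_, the RefSeq prefix for non-coding transcripts predicted by automated genome annotation. The rule gave 1698 probes of 24684 on the array, each for a different accession and each printed as 3 spots. Islets were freed with collagenase from adult male rats (3 arrays, 1 rat each) and from pools of P10 rats (3 arrays), and their RNA was amplified, labelled and hybridised to a 1-colour Agilent array of lncRNA and mRNA probes. The labels do not state the adult age, the strain or the sex of the P10 rats, and name no treatment or transgene. The comparison asks which of these transcripts differ between islets before and after postnatal maturation.

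Long non-coding RNAs are transcripts without a long conserved reading frame, and in islets several are known to act on the genes of beta cells, the insulin-secreting cells. A predicted XR record is weaker evidence of a gene than a curated one. Such records can be pseudogene copies of coding genes, fragments of untranslated regions or true non-coding genes, and many were later withdrawn or replaced. A probe for a pseudogene copy can also bind the RNA of its parent gene. None of these accessions (0 of 1698) matched a transcript of the RefSeq gene table of the GRCr8 assembly, so no gene symbol, position or sequence is given, and the members are named by accession. The array design names the older build rn4.

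Levels are the log2 signal of a probe minus the 75th percentile of log2 signal on its array, so that 0 is the level which 75% of probes do not exceed. The percentile itself differed by stage, at 10.93 to 11.36 on adult arrays and 9.92 to 9.99 on P10 arrays, so each direction given is relative to the bulk of probes. Changes are adult minus P10 with their standard error (SE). P-values are those of limma, a linear model with moderated variances, adjusted by Benjamini and Hochberg over 18103 tested probes at a threshold of 0.05. Differences between adult arrays 2 and 3 were close to the noise between spots, with a variance over the members of 1.14 times that predicted from the spots. For P10 arrays 1 and 2 the ratio was 0.99, and for P10 array 3 against these it was 1.11 and 1.06. Adult array 1 stood apart from adult arrays 2 and 3, at 29.1 and 30.0 times the predicted variance. It had been scanned with the P10 arrays, and adult arrays 2 and 3 in another run. Adult arrays 2 and 3 were averaged to 1 sample, although each is described as 1 rat, and so were P10 arrays 1 and 2. Each stage therefore has n = 2. All P10 pairs were thus close to spot noise, so the 2 counted P10 samples may not be more independent than the averaged arrays, and the p-values measure only the spread between the counted samples, which may be technical.

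Marker genes on the same arrays differed by stage, from lists of 10 genes each. Of 8 tested genes of mature beta cells, adults had 5 higher and 1 lower, and of 8 leukocyte genes 8 were higher. Of 9 acinar genes 7 were lower (4 lower and 1 higher with quantile normalization), of 10 enterocyte genes 10 and of 7 cell cycle genes 6. The summed linear signal, in multiples of the array's 75th percentile, was 7.55 to 8.45 in adults and 331 to 347 at P10 for the enterocyte list and 404 to 574 against 1220 to 1296 for the acinar list. It was 281 to 385 against 331 to 366 for the beta cell list, 19.7 to 20.8 against 4.72 to 4.99 for the leukocyte list and 10.8 to 11.8 against 20.1 to 21.4 for the cell cycle list. No adult array measured Apoa4 above background, and no P10 array Cd79b or Itgam. The part of these other cells in the results below was not tested. In bulk RNA, fewer cells of a type and less RNA per cell cannot be told apart.

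Many of the predicted transcripts gave a clear signal in islets. The number of members well above background was 1082 to 1170 per adult array and 1148 to 1204 per P10 array, and 0 spots were saturated. In all, 985 members (58%) were well above background on all 6 arrays and 381 (22.4%) on none. Of protein-coding probes 73% were so on all 6 arrays, and of the lncRNA probes whose names begin with MRAK 48.7%. Probes counted as protein-coding are those among the authors' deposited mRNA values and those named CUST_ without deposited values. The latter were classed by name alone. Detection on all 3 arrays of a stage was reached by 1034 members in adults and 1117 at P10. Signal on all 3 P10 arrays and on no adult array was seen for 53 members (3.12%), and the reverse for 26 (1.53%). Over all probes on the array, the same patterns were seen for 1.97% and 2.35%. Spots of a member agreed closely, with a median SD of log2 signal over the 3 spots of 0.08 to 0.11 per array.

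Predicted transcripts were more often lower than higher in adult islets. A member was tested where each of the 3 arrays of either stage measured it well above background, which left 1166. Of these, 99 were higher in adults and 561 lower. That is 8.49% and 48.1%, beside 21.2% higher and 31.1% lower among all probes tested (52.2% in either direction). At least 2-fold were 72 of the higher and 492 of the lower, beside a background of 14.6% and 23.9% of all tested probes at that size. At least 4-fold were 28 higher and 202 lower of the 1166, beside 6.2% and 10.6% of all tested probes. Changes of at least 8-fold were seen for 11 and 66, beside 2.08% and 4.54%. As a share of tested members, the excess of lower ones over all tested probes was smaller at 8-fold than at 2-fold. The median change of the tested members was -1.02, with quartiles of -1.76 and -0.08, and the median over all tested probes was -0.24. A member that passed the filter only through the stage where it is bright had to differ, so these counts are read beside those of all probes, which passed the same filter. Among members well above background on all 6 arrays 84 were higher and 457 lower (8.53% and 46.4%), beside 21.7% and 30.1% of all probes under the same filter. Leaving out 1 counted sample moved the median change of members little. It was -0.99 and -1.08 without P10 replicate 1 and 2, and -0.90 and -1.08 without adult replicate 1 and 2. The error of such a fit comes from the stage that keeps 2 samples. Without a P10 sample this is the wide adult spread, and without an adult sample the P10 spread, close to spot noise. The counts therefore depended on which sample was left out. Without P10 replicate 1 they were 41 higher and 230 lower (all tested probes 8.52% and 12.9%), and without P10 replicate 2 39 and 264 (8.55% and 13.9%). Without adult replicate 1 they were 204 and 763 (31.7% and 41.3%), and without adult replicate 2 173 and 799 (29.4% and 48.7%). With normexp background correction they were 41 and 279 (11.3% and 14.7%).

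**Figure D1:**
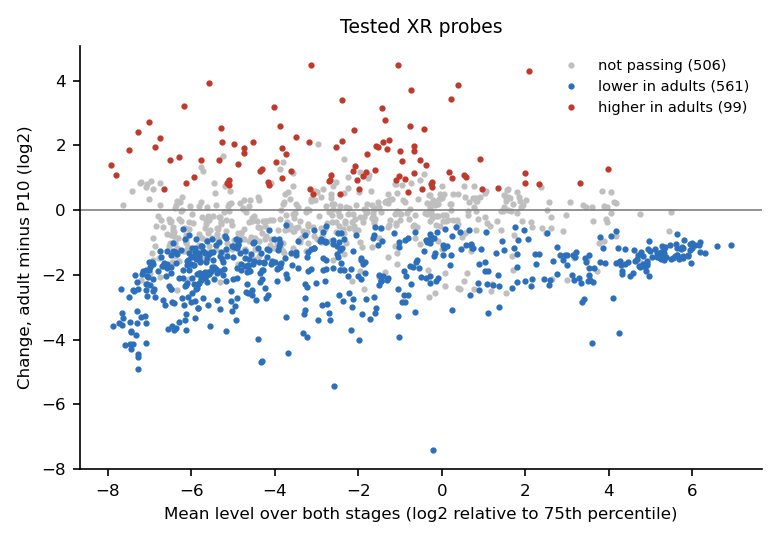
Change from P10 to adult (y axis, log2, adult minus P10) against the mean level over both stages (x axis, log2 relative to the array's 75th percentile) for the 1166 tested XR probes, 1 point each. The 561 probes lower in adults span the whole range of levels, and the 99 higher ones become few at the bright end.

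The balance moved with the scaling but kept its side. With quantile normalization, which forces all arrays to 1 signal distribution, 159 members were higher and 484 lower, or 13.6% and 41.5%. All tested probes gave 28.3% and 28.8%. Lower calls thus made up 75.3% of called members, against 85.0% with the main scaling, and 50.4% against 59.5% over all probes. The median change of members was -0.57, where all probes gave -0.03. Subtracting each array's median gave -0.72 for members and 0.06 for all probes. The gap between the medians was -0.79 with the main scaling, -0.55 with quantile normalization and -0.47 with normexp background correction. With median scaling it was again -0.79, which was fixed in advance, since both scalings subtract 1 value from each array. The authors' deposited log2 values held 1042 of the members. Fitted with limma in the same way, 129 of these were higher (12.4%) and 416 lower (39.9%), beside 27.4% and 27.8% of all listed probes. Of 474 listed members lower by the main scaling 386 were lower with these values too, and of 82 higher 82 were. No test was made of the gap between medians, since the members were chosen with earlier results known.

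**Figure D2:**
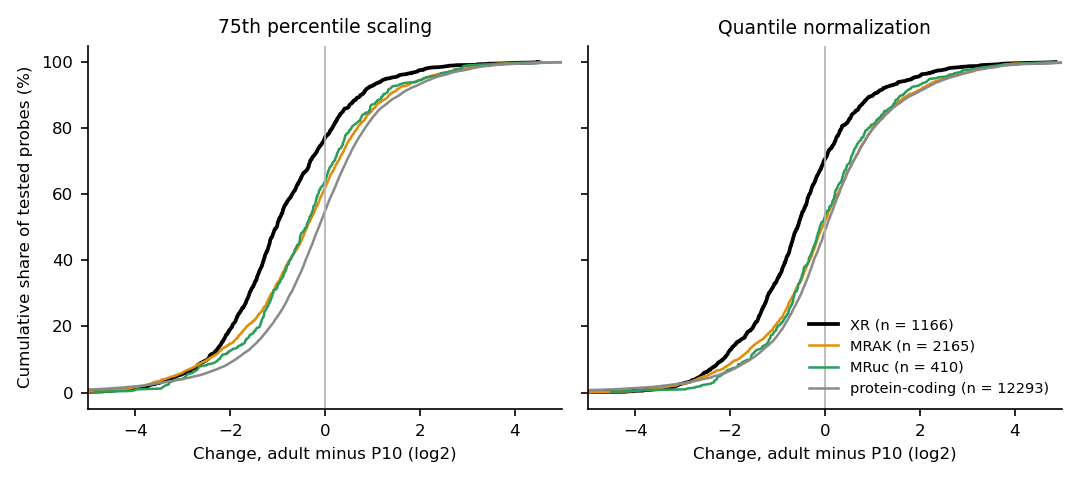
Cumulative share of tested probes (y axis, %) by change from P10 to adult (x axis, log2), for XR, MRAK, MRuc and protein-coding probes, with 75th percentile scaling (left) and quantile normalization (right). The XR curve lies left of the others over most of its range in both panels, with medians of -1.02 and -0.57, and 77.4% of XR probes lie below 0 in the left panel.

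Other lncRNA classes of the array had medians nearer to 0; the difference was not tested. The MRAK probes gave 18.2% higher and 33.0% lower of 2165 tested, with a median of -0.39. The lncRNA probes whose names begin with MRuc gave 15.4% and 31.5% of 410 and also a median of -0.39. Protein-coding probes gave 23.4% and 28.8% of 12293 and a median of -0.13. With quantile normalization the medians were -0.05, -0.10 and 0.03.

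The shift of the members was present at each signal strength. With the main scaling the dim probes had the lowest median change in each class, so the tested members were split into 3 equal parts by mean level, and other probes were read within the same bounds. In the dim part the median change was -1.31 for members and -0.67 for protein-coding probes. In the middle part it was -0.67 and -0.11. In the bright part it was -1.02 and -0.03, while MRAK probes stood at 0.21. Of the 389 bright members 30 were higher and 201 lower, that is 7.71% and 51.7%, against 23.7% and 26.0% of 6049 bright protein-coding probes. With quantile normalization the member medians were -0.58, -0.49 and -0.67 from dim to bright, and those of protein-coding probes 0.08, 0.07 and 0.01.

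**Figure D3:**
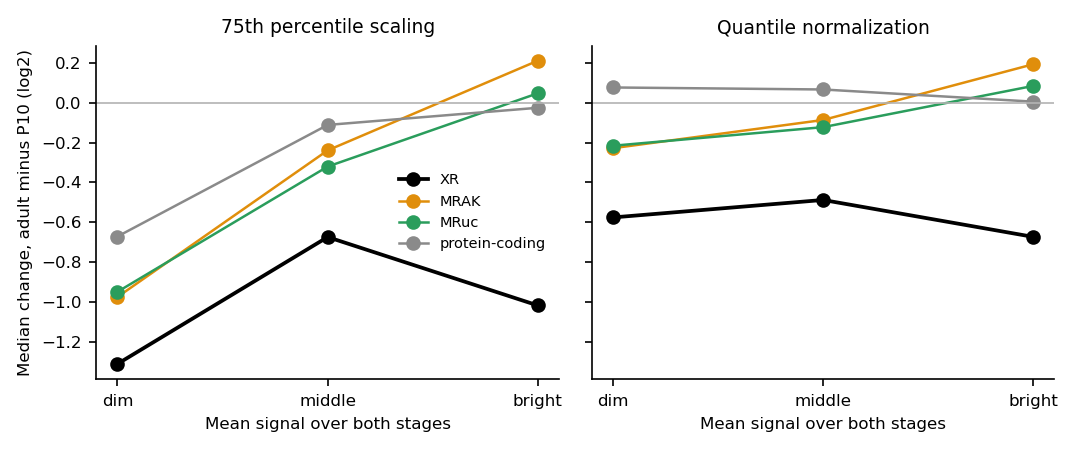
Median change from P10 to adult (y axis, log2) of tested XR, MRAK, MRuc and protein-coding probes in 3 ranges of mean signal (x axis), whose bounds split the tested XR probes evenly; left 75th percentile scaling, right quantile normalization. XR medians run from -1.31 to -0.67 on the left and from -0.67 to -0.49 on the right, below the other classes in each range.

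Without any model, all 3 adult arrays lay below all 3 P10 arrays for 765 of 1166 members (65.6%) and above for 174 (14.9%), while 227 overlapped. Over all tested probes 45.9% lay below and 31.9% above. A gap of at least 2-fold between the nearest arrays separated 377 members on the lower side (32.3%) and 56 on the higher side (4.80%), where all probes gave 18% and 11.3%. With quantile normalization 666 members lay below and 239 above, or 57.1% and 20.5%, and all probes gave 39.2% and 38.1%. Members called in 1 direction under 5 settings of scaling and background numbered 207 lower (17.8%) and 41 higher (3.52%), against 11.8% and 11.3% of all tested probes. Counting every array and fitting the scan run in 3 ways left these counts unchanged. Each of these fits called more members than normexp, which is among the 5 settings, so a large drop was not to be expected. The fixed block and the fit of scan run 1 only gave the same changes, since the other run held only adult arrays.

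The steepest fall among members measured on all arrays was that of XR_009018. It stood at -3.96, -3.87 and -3.84 on adult arrays 1 to 3 and at 3.5, 3.54 and 3.48 on the P10 arrays. The adult arrays lay close together and far below all P10 arrays. The adult mean was -3.91 ± 0.07 (SD, n = 2) and that of P10 was 3.5 ± 0.03 (SD, n = 2), a fall of 170-fold (log2 change -7.41, SE 0.13, limma adjusted p = 0.00115). At P10 its signal ranked at percentile 95.1 of tested probes and in adults at 34.1, ranks that also depend on the affinity of the probe.

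XR_005987 came next, at -5.14, -5.44 and -5.51 in adults and 0.25, 0.21 and 0.05 at P10, a 43.7-fold fall (log2 change -5.45, SE 0.19, limma adjusted p = 0.00133). XR_005439 stood at -6.11, -5.61 and -5.75 against -1.42, -1.44 and -1.52, and changed by -4.43 (SE 0.20). In both, the 2 stages were apart by many times the spread within a stage. XR_006707 and XR_008176 were bright in both stages. The former stood at 1.53, 1.56 and 1.61 in adults and 5.68, 5.72 and 5.61 at P10, a change of -4.10 (SE 0.13, limma adjusted p = 0.00133). The latter stood at 2.47, 2.28 and 2.18 against 6.25, 5.84 and 6.25, a change of -3.80 (SE 0.17). Neither overlapped between stages, which their choice required, and with quantile normalization the changes were -3.79 and -3.38. XR_006530, XR_005983, XR_007223 and XR_006774 changed by -4.0, -3.99, -3.93 and -3.91. XR_006602 changed by -3.78 (SE 0.58, limma adjusted p = 0.0112), with adult array 1 at -5.99 and adult arrays 2 and 3 at -4.55 and -4.32. Its change was -3.01 without adult replicate 1 and -4.56 without adult replicate 2. With normexp all 10 falls passed at smaller sizes. XR_009018 changed by -6.77, XR_005987 by -4.20, XR_005439 by -2.98 and XR_006530 by -3.38. XR_005983, XR_007223 and XR_006602 changed by -2.40, -2.82 and -2.74.

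In most of the largest rises the adult arrays were spread widely. XR_007022 stood at 0.37, 2.27 and 1.8 on adult arrays 1 to 3 and at -3.0, -3.29 and -3.43 at P10. Adult array 1 was lowest of the adults, and all adults were above all P10 arrays. Its mean was 1.2 ± 1.18 (SD, n = 2) against -3.29 ± 0.20 (SD, n = 2), a 22.5-fold rise (log2 change 4.49, SE 0.62, limma adjusted p = 0.00861). XR_009486 rose by the same 4.49 (SE 0.55, limma adjusted p = 0.00662), from -5.30, -5.18 and -5.50 at P10 to -1.61, 0.12 and -0.42. Without adult replicate 1 these 2 rises were 5.32 and 5.22, and without adult replicate 2 3.66 and 3.76. Normexp gave 3.90 and 2.86.

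XR_007238 rose with little spread. It stood at 4.32, 4.17 and 4.10 in adults and -0.07, -0.02 and -0.08 at P10, a 19.5-fold rise (log2 change 4.29, SE 0.14, limma adjusted p = 0.00133). Its adult signal ranked at percentile 97.5 of tested probes and its P10 signal at 67.1. XR_008419 was likewise tight, at 0.18, 0.06 and 0.16 against -2.99, -3.03 and -3.04, a rise of 3.17 (SE 0.13). XR_005575 was highest on adult array 1, at 2.95 against 1.85 and 1.48 on arrays 2 and 3, and -1.44, -1.43 and -1.65 at P10, a rise of 3.85 (SE 0.49), or 3.21 without adult replicate 1 and 4.5 without adult replicate 2. In XR_007818, XR_008781, XR_008986, XR_008058 and XR_007534 adult array 1 was the lowest adult array, and the rises were 3.70, 3.44, 3.40, 3.2 and 2.78. For XR_008986, XR_008058 and XR_007534 they were 4.35, 4.10 and 3.6 without adult replicate 1 and 2.45, 2.30 and 1.95 without adult replicate 2. XR_007534 missed the threshold without P10 replicate 2, at 2.67 (limma adjusted p = 0.0538). With normexp, XR_008986, XR_008058 and XR_007534 no longer passed, at 2.51, 1.55 and 2.43 with limma adjusted p-values of 0.0616, 0.137 and 0.0544.

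**Figure D4:**
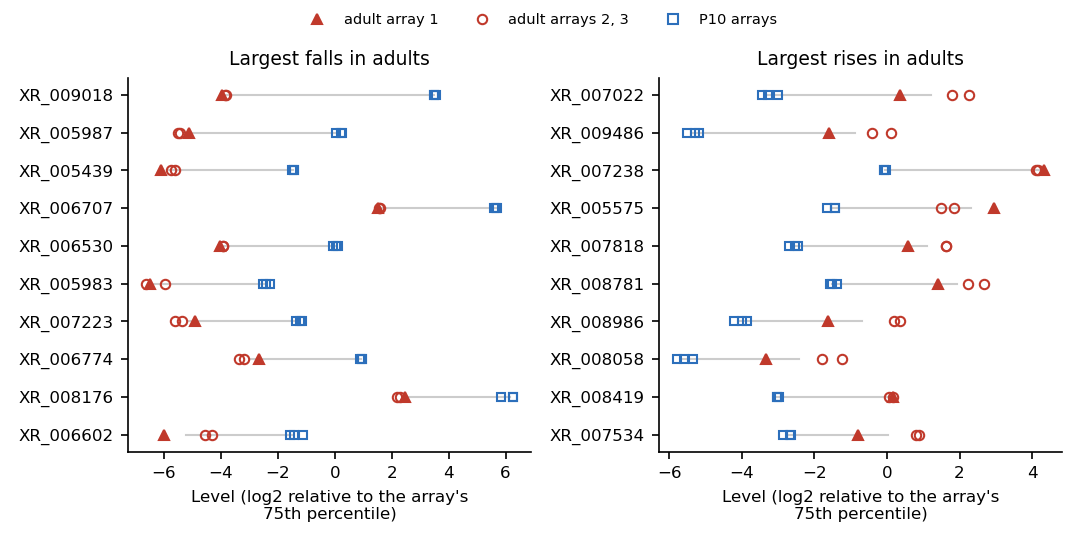
Level on each array (x axis, log2 relative to the array's 75th percentile) of the 10 XR probes with the largest fall (left) and the 10 with the largest rise (right) in adults among those well above background on all arrays. Filled triangles are adult array 1, open circles adult arrays 2 and 3, open squares the P10 arrays, and grey lines join the means of the counted samples. Stages do not overlap for any of them, which the choice of these probes required. In 7 of the rises adult array 1 lies below arrays 2 and 3.

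Some members were measured in 1 stage alone. Where no array of a stage measured a probe above background, its level there was taken as no less than the dimmest signal still marked well above background, and the fold is given as at least that value, which is approximate. These members entered through the stage where they were bright, so a difference was built in and the values are a description, with no test. On the P10 side XR_006745 had the largest such fold. It stood at -4.34, -4.25 and -4.25 at P10 and at -8.08, -8.01 and -7.77 in adults, at least 13-fold lower in adults. XR_005744, XR_007242, XR_007124 and XR_006033 were at least 10.6-fold, 10.3-fold, 9.31-fold and 8.98-fold lower. With normexp the log2 changes of these 5 were -1.48 to -1.36, below the size of the bounds. With quantile normalization they were -2.88, -2.80, -2.57, -4.03 and -2.71 in the order given. All but that of XR_007124 were smaller than the bound, so the bounds hold for the main scaling only.

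On the adult side XR_008627 stood at -3.26, -3.94 and -3.97 in adults and -7.71, -7.45 and -7.50 at P10, at least 11.5-fold higher in adults, but changed by only 0.88 on the log2 scale with normexp. XR_005723 was at least 5.91-fold higher, and XR_006188, XR_008211 and XR_006929 at least 3.02-fold, 2.81-fold and 2.78-fold. With normexp XR_005723 stood at 0.27 and the last 3 turned to -0.18, -0.21 and -0.16, so the folds of all 10 members depended on the background correction. With quantile normalization the log2 changes on the adult side were 4.77, 4.12, 2.59, 3.26 and 3.66 in the order given. The change of XR_008211, 2.22 on the log2 scale, was 2.92 without adult replicate 1 and 1.52 without adult replicate 2.

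The brightest members were mostly the same in both stages, and the size of their change moved with the scaling. XR_007140, the brightest, stood at 6.17, 6.55 and 6.66 in adults and 7.53, 7.54 and 7.39 at P10, a change of -1.07 (SE 0.21, limma adjusted p = 0.0193). With quantile normalization it stood at 0.03 (limma adjusted p = 0.837). XR_008756 and XR_007305 changed by -1.10 and -0.98, or 0.01 and 0.07 with quantile normalization. XR_007848 and XR_007270 changed by -1.33 and -1.31, or -0.29 (limma adjusted p = 0.103) and -0.33 (limma adjusted p = 0.0814). With median scaling all 5 were lower and passed, at -0.77, -0.80, -0.68, -1.03 and -1.01 in the order given. All 5 ranked above percentile 99 of tested probes in both stages, and without either P10 sample none passed, at -0.94 to -1.38.

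At the other end, 3 members above the median level had the smallest changes. XR_007253 stood at -0.02, 0.44 and 0.50 in adults and 0.17, 0.23 and 0.25 at P10. XR_007411 stood at -0.51, -0.07 and -0.07 against -0.17, -0.23 and -0.37, and XR_006603 at -2.05, -1.57 and -1.59 against -1.70, -1.77 and -1.89. In each, adult array 1 was below and adult arrays 2 and 3 above all P10 arrays, so the adult mean near that of P10 lies between adult samples on either side of it. Their standard errors were 0.21 to 0.22, so that small changes could not be seen. With the scan run as a fixed block the change is that of adult array 1 against the P10 arrays. It was -0.24, -0.25 and -0.27 in the order given. Without adult replicate 1 the changes were 0.24, 0.22 and 0.23.

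Adult array 1 and adult arrays 2 and 3 gave different levels for part of the members. Adult array 1 was at least 2-fold higher for 139 members (11.9%) and at least 2-fold lower for 159 (13.6%). Together this is 25.6% of members, against 12.3% of all tested probes. On the higher side stood 1.03% of all other probes and 1.47% of other lncRNA probes, and on the lower side 10.4% and 18%. The 139 members made up 44.3% of all probes that were 2-fold higher on adult array 1, while members are 6.44% of tested probes. With quantile normalization 177 members were 2-fold higher and 38 lower, where all tested probes gave 505 and 556. P10 array 3 differed 2-fold from the other P10 arrays for 2 members (0.172%), and for 0.922% of all tested probes. Of the 298 members with a 2-fold adult gap 14 were called higher and 86 lower in adults, and of the 868 without it 85 and 475. Such a gap raises the variance used by the test, so fewer calls among the 298 were built in. This split was not made for other probes. All tested probes, with any gap, gave 21.2% higher and 31.1% lower. Scan run and animal cannot be told apart within the adults.

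**Figure D5:**
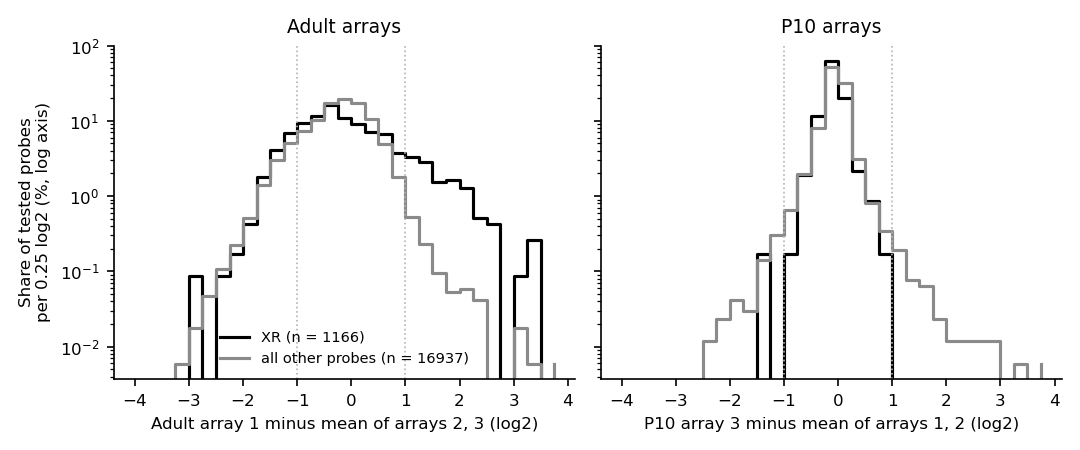
Share of tested probes (y axis, %, log axis) by difference between arrays of a stage (x axis, log2), for XR probes (black) and all other probes (grey): left, adult array 1 minus the mean of adult arrays 2 and 3; right, P10 array 3 minus the mean of P10 arrays 1 and 2. Bars are 0.25 wide, values beyond 4 are drawn at 4, and dotted lines mark 2-fold. XR probes have a heavier right tail on the left panel, with 11.9% beyond 2-fold against 1.03% of other probes.

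Both adult samples showed the shift to lower values. The median difference of the members from the P10 mean was -1.09 on adult array 1 and -0.92 on adult arrays 2 and 3, where all tested probes gave -0.33 and -0.16. Members at least 2-fold below the P10 mean on both numbered 460 (21.6% of all tested probes met that), and 63 were 2-fold above on both (13.1% of all tested probes). A further 148 were 2-fold below on array 1 alone and 97 on arrays 2 and 3 alone. Opposite 2-fold differences were seen for 4. Counts on 1 adult sample alone and of opposite differences were not made over all tested probes. Of those, 10.6% were 2-fold lower on adult array 1 than on adult arrays 2 and 3. On the scan run that held adult array 1 with all P10 arrays, 178 members were higher and 809 lower, beside 30.3% and 49.5% of all tested probes, with the 1 adult array assumed to vary like the P10 arrays.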

How the data were processed

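Per the file headers, the authors scanned each array and extracted spot intensities with Agilent Feature Extraction 11.0.1.1. The deposited intensity used here is the processed signal, background-subtracted by that software. The authors also deposited log2 normalized values, whose normalization is not given in the sources used here; 96.1% of the member values lay within 0.05 of quantile-normalized signal.

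Spots marked as outliers were dropped (95 to 125 member spots per array), log2 signals of the 3 spots of a probe were averaged and each array's 75th percentile was subtracted. A probe counted as well above background where most of its spots carried that mark, and was tested if so on all 3 arrays of a stage. Changes were fitted with limma 3.58.1 in R 4.3.3 and adjusted by Benjamini-Hochberg; the script was tested on simulated data. Replicate numbers did not pair the samples (correlations of deviations -0.21, 0.08 and -0.24).

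Named members are the 10 largest rises and falls, the 5 largest bounds per direction and the 4 brightest per stage. The 3 smallest changes above the median level were named too. The rises and falls were taken among members passing, well above background on all 6 arrays and not overlapping between stages. Members, marker lists and tests were chosen with earlier results of these data known. The array number limits precision. Alternatives changed the scaling, background, filters, replicates and scan run; normexp used the median foreground and background signals (offset 50), since the files hold no mean signal.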

Additional observations from a re-analysis of the deposited data

How the results depend on the processing

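Lower calls outnumbered higher calls among the members under all 17 alternatives run. Over all tested probes the same held in every alternative but median scaling, with 27.6% higher and 25.4% lower. Higher members numbered 159 when every array was counted, 159 with quantile normalization, 157 with median scaling, 41 with normexp, 182 with the scan run as a fixed block, 165 as a random block and 178 on scan run 1 only. They ranged from 39 to 204 when 1 replicate was left out. Lower members numbered 279 with normexp, 854 with no filter on dim probes and 230 to 799 when 1 replicate was left out. The median change was -0.57 with quantile normalization, -0.72 with median scaling, -0.87 with normexp, -0.52 with the authors' values, -1.14 with no filter, -0.93 for members well above background on all arrays, -1.09 with the fixed block, -1.10 with the random block, -1.09 on scan run 1 only and -1.08 to -0.90 when 1 replicate was left out. With the replicate number as a block, which the check of pairing did not bear out, 138 were higher, 690 lower and the median was -1.02. All tested probes gave 26.0% and 37.5% with that block. Their median was -0.57 with no filter and -0.39 to 0.06 in every other alternative.

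Of the 38 named members, 131 of 152 leave-one-out values and 437 of 474 others kept direction and call. Signs turned for XR_007253, XR_007411 and XR_006603 when every array was counted and with the replicate block (0.087, 0.043 and 0.048 in both), with median scaling (0.30 each) and without adult replicate 1 (0.24, 0.22 and 0.23, against -0.25, -0.22 and -0.24 without adult replicate 2). XR_007411 and XR_006603 also turned without P10 replicate 1 (0.079 and 0.072), and XR_007253 without P10 replicate 2 (0.020) and with normexp (0.052). With quantile normalization XR_007140, XR_008756, XR_007305 and XR_006603 turned to 0.032, 0.0067, 0.066 and 0.069, and with the authors' values to 0.033, 0.0066, 0.067 and 0.065. With normexp XR_006188, XR_008211 and XR_006929 turned to -0.18, -0.21 and -0.16. The cause of these shifts was not tested. Signal near background limits the bounds. Most named members were chosen as extremes of these same values, so keeping direction and call in most fits was largely built in. Counting every array and the replicate block gave the same changes, as did the fixed block and scan run 1 only.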

Other observations

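Members brighter on adult array 1 than on adult arrays 2 and 3 were set beside the P10 arrays. Of the 139 members with a 2-fold gap in that direction, 139 had P10 signals well above background throughout. Their median difference from the P10 mean was -0.96 on adult array 1 and -2.50 on adult arrays 2 and 3, of which the second is low in part because the gap chose the set. In 109 of them (78.4%) all P10 arrays lay above all adult arrays. The same held for 83 of the 159 members with the opposite gap (52.2%) and for 573 of the 868 under 2-fold (66.0%). Over all tested probes, with any gap, it held for 45.9%. Among the 139 members only 52 passed the test between stages, with the adult samples this far apart. Neither count was made for other probes with such gaps. The following examples were chosen after their values were seen. XR_005632 stood at -1.28 on adult array 1, -4.69 and -4.79 on adult arrays 2 and 3, and -1.60, -1.66 and -1.70 at P10. Adult array 1 thus lay near P10 and the other adult arrays far below, and the change of -1.34 (SE 1.25) had a limma adjusted p of 0.407. XR_005491 stood at 1.76, then -1.63 and -1.58, against 1.07, 0.94 and 0.83 at P10 (limma adjusted p = 0.588). In the other direction, XR_008738 stood at -3.07 on adult array 1 and -1.11 and -1.08 on adult arrays 2 and 3, against -2.47, -2.54 and -2.70 at P10 (limma adjusted p = 0.575).

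Bright members were nearly all on the lower side, with a bound on the mean level of 4 chosen after the plot of change against level was seen. Of 89 members above it, limma called 0 higher and 80 lower (89.9%), and their median change was -1.38. The 441 other probes above it gave 49 higher and 217 lower (49.2%) and a median of -0.60. With quantile normalization 3 of the 89 members were higher and 46 lower (51.7%), with a median of -0.74, while the other probes gave 117 and 78 and a median of 0.04.

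By the first digits of the accession, which follow the order of record numbers, 54.1% of 207 tested members starting with XR_005 were lower and 5.31% higher. For XR_006, XR_007 and XR_008 it was 50.3% and 6.18%, 46% and 7.54%, and 44.7% and 12.1%. For XR_009 it was 43.4% and 14.5% of 152. All tested probes gave 31.1% lower and 21.2% higher. Differences between the starts were not tested. Median changes were -1.09 for XR_005 and -0.88 for XR_009, and the starts between them gave -1.12, -1.04 and -0.95. The median over all tested probes was -0.24.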
